A study of Mus musculus with 4 samples.

Results

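The Kruppel-like factors (KLF) are zinc finger transcription factors, and 10 of their genes (Klf2, Klf3, Klf4, Klf5, Klf6, Klf7, Klf9, Klf10, Klf13 and Klf15) were followed in AT2 cells of the injured mouse lung. All 10 were found by symbol among the 40092 genes of the count table, had reads in every library and passed the filter on low counts. The family was chosen by the measured value of Klf4, which stood out between the genotypes in these same libraries. For that reason the values of Klf4 between genotypes are a description without a test, and the genotype differences of its relatives were read with the same contrast already known.

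The libraries came from 2 Ctrl samples (Alkbh5flox/+; Sftpc-CreERT2; Rosa26-mTmG) and 2 A5-CKO samples (Alkbh5flox/flox; Sftpc-CreERT2; Rosa26-mTmG), all given tamoxifen and bleomycin and collected on day 14. Sftpc-CreERT2 is a recombinase that tamoxifen activates in cells using the surfactant protein C promoter, and Rosa26-mTmG turns the recombined cells green, so both groups carried Cre and were sorted as GFP+ cells. The controls could lose only a single Alkbh5 allele and are thus not wild type. Mouse ages and the number of mice behind each library are not given in the sources used here, so the p-values measure only the spread between these libraries.

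AT2 cells are cuboidal cells that make surfactant and act as stem cells of the alveolus, giving rise to the flat AT1 cells after injury. KLF proteins share a C-terminal block of C2H2 zinc fingers that binds GC-rich and CACCC sites, and they differ in the part that recruits cofactors. Klf2, Klf4, Klf5, Klf6 and Klf7 mostly activate transcription, Klf3 represses through CtBP proteins, and Klf9, Klf10 and Klf13 can recruit the Sin3 corepressor. In the lung, Klf5 acts in perinatal epithelial maturation and in the choice of alveolar fate after injury, and Klf2 is best known from endothelium and T cells.

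The upstream sequences of the 3 members with the largest log2 fold changes between genotypes (Klf4, Klf6 and Klf15), and of Klf2, are shown because KLF genes are themselves rich in the GC boxes that SP and KLF proteins recognise. Each is the run of 250 bases before the start of a RefSeq transcript (GRCm38.p6), read 5′ to 3′ on the strand of the gene. Capitals mark GC boxes (GGGCGG, or CCGCCC on the other strand), E boxes (CACGTG, the site class of the clock factors and of Myc) and the MEF2 motif. Klf4 lies on the minus strand at chr4:55532476-55532725, Klf6 on the plus strand at chr13:5861239-5861488, Klf2 on the plus strand at chr8:72318812-72319061 and Klf15 on the plus strand at chr6:90462326-90462575.
Klf4: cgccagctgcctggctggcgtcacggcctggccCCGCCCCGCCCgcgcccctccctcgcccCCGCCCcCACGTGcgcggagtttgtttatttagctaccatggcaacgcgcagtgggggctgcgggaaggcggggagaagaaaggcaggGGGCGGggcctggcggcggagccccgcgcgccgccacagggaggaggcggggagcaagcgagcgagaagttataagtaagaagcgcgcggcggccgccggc
Klf6: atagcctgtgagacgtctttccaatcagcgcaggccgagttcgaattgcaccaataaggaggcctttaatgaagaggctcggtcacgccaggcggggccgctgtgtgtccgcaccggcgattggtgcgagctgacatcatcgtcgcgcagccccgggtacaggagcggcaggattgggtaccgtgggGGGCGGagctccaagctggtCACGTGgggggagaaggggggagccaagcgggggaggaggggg
Klf2: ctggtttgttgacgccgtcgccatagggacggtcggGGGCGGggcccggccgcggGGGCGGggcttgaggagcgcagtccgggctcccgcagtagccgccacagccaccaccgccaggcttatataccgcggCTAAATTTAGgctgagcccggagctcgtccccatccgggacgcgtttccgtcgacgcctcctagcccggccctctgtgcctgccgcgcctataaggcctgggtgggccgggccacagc
Klf15: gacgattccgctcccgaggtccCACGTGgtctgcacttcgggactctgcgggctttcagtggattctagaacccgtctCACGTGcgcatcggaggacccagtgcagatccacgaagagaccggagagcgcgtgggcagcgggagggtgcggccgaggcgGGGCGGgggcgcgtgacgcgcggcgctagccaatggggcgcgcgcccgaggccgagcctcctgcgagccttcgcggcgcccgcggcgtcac

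The Klf4 sequence held 4 GC boxes and 1 E box, which ran from 182 to 177 bases before the start. The Klf6 sequence held 1 GC box and 1 E box, from 43 to 38 bases before the start. That of Klf2 held 2 GC boxes and 1 MEF2 motif, from 118 to 109 bases before the start. The Klf15 sequence held 1 GC box and 2 E boxes, the first from 228 to 223 and the second from 172 to 167 bases before the start. RefSeq promoter entries were found for 8 of the 10 members, all but Klf5 and Klf10. The windows of Klf7 and Klf15 lay inside the annotated gene, before a transcript that started within it. A GC box was present in 7 of these 8, all but Klf9, against 32.7% of 32851 promoter windows of the same length. An E box was present in 3 of the 8 (Klf4, Klf6 and Klf15) against 6.02% of all windows, and the MEF2 motif in 1 of the 8 (Klf2) against 2.92%. The CACCC box (CACCC) was present in 6 of the 8 and in 52.0% of all windows, and the CCAAT box (CCAAT) in 4 of the 8 and in 33.8%. The AP-1 motif (TGANTCA) was found only before Klf9, against 6.75% of all windows. The CArG motif was found before none of the 8, against 1.47% of all windows. All motifs were searched on both strands, and GC and CACCC boxes can share bases. The GC content of these sequences ranged from 59.2% (Klf7) to 78.4% (Klf3), and the median of all windows was 52.4%. A match is a match of letters and was not tested as a binding site.

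Total counts ranged from 18144865 to 20811757 per library, so that the floor of 3 counts for a gene not detected lay between 0.128 and 0.177 normalized counts (CPM, reads relative to the TMM-scaled library size), for counting error only. Alkbh5, the targeted gene, had 81.7 and 152 CPM in the Ctrl libraries against 19.3 and 36.6 CPM in the A5-CKO libraries, without overlap. The AT2 markers were abundant in every library, Sftpc with 183787 to 281378 counts, and their summed level was 68750 and 96580 CPM in Ctrl against 50900 and 42220 CPM in A5-CKO. Leukocyte markers summed to 606, 348, 303 and 877 CPM and mesenchymal markers to 447, 175, 118 and 1117 CPM, in the order Ctrl 1, Ctrl 2, A5-CKO 1 and A5-CKO 2 that is kept wherever 4 values are listed. Endothelial markers summed to 211, 282, 141 and 279 CPM, with Cldn5 listed at 0 in all 4 libraries. A5-CKO 2 stood apart in mesenchymal genes, and A5-CKO 1 had the lowest sum in each of these 3 lists. In bulk RNA, fewer cells of a type and less RNA per cell cannot be told apart. Between genotypes the leukocyte (10 of 10 tested, 6 above 0) and mesenchymal lists (10 of 10, 8 above 0) had log2 medians of 0.48 and 0.78, with ranges of -0.81 to 1.23 and -1.58 to 1.51 when single libraries were omitted, both lowest without A5-CKO 2. The endothelial list (9 of 10 tested, 3 above 0) had a median of -0.080, which was 0.24 (6 above, 3 below) without A5-CKO 1 and -0.50 without A5-CKO 2, and no gene of the 3 lists passed the adjusted threshold.

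Per length, Klf6 and Klf2 were the most abundant members, and Klf7 the least. Levels were compared between genes as CPM per kilobase of the longest annotated transcript. Klf6 had 44.8 and 38.9 CPM per kilobase in the Ctrl libraries against 193 and 67.5 in the A5-CKO libraries. Klf2 had 60.0 and 49.4 CPM per kilobase in Ctrl against 138 and 48.6 in A5-CKO. The ranges of Klf6 and Klf2 overlapped, and Klf2 led the family in Ctrl 1, Klf15 (53.8 CPM per kilobase) in Ctrl 2 and Klf6 in both A5-CKO libraries. The lowest level of Klf2 was above the highest of Klf9, the next in the order of means. Klf9, Klf4, Klf15, Klf3, Klf13, Klf10 and Klf5 followed with mean levels of 23.2, 23.2, 22.6, 19.0, 17.6, 10.9 and 8.70 CPM per kilobase, and the ranges of every pair of neighbours among them overlapped. Klf7, with 1.61 to 3.96 CPM per kilobase, was below Klf5 in all 4 libraries.

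The summed level of the 10 genes was 188 and 247 CPM per kilobase in Ctrl against 468 and 248 in A5-CKO, so that A5-CKO 1 stood above the others and A5-CKO 2 lay next to Ctrl 2. The share of Klf6 in this sum was 23.8% and 15.7% in Ctrl against 41.2% and 27.2% in A5-CKO. The share of Klf4 was 6.44% and 4.17% in Ctrl against 9.75% and 9.95% in A5-CKO. The share of Klf15 was 9.31% and 21.8% in Ctrl against 1.52% and 4.82% in A5-CKO. For each of these 3 genes the shares of the genotypes did not overlap, whereas the share of Klf2, from 19.6% in A5-CKO 2 to 31.9% in Ctrl 1, overlapped between them.

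**Figure D1:**
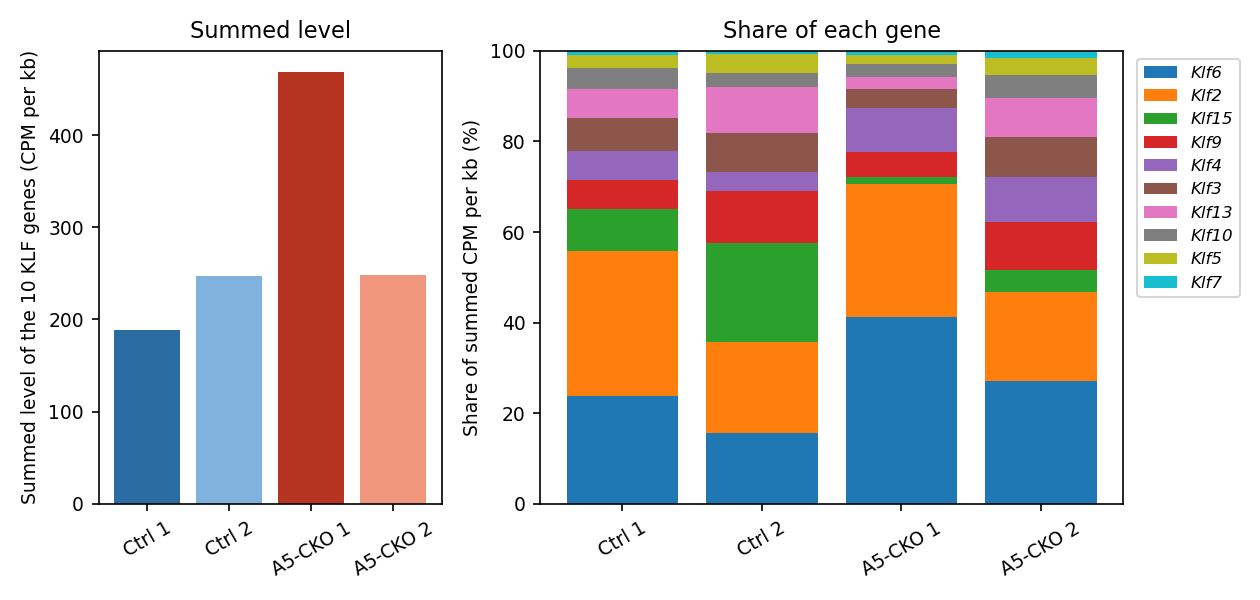
Left, summed level of the 10 KLF genes in each library as CPM per kilobase of transcript. Right, the share of each gene in that sum in percent, where Klf6 takes 41.2% in A5-CKO 1 and Klf15 takes 21.8% in Ctrl 2.

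The comparison of genotypes asked how AT2 cells without Alkbh5, which removes the m6A mark from RNA, differ from controls in the repair phase. Of the 10 genes, 4 (Klf4, Klf6, Klf7 and Klf10) had higher CPM in each A5-CKO library than in either Ctrl library, as 20.3% of all 16661 genes tested did. A single member, Klf15, was lower in both, as 23.5% of all genes were, and the libraries of the other 5 overlapped. Since the family was chosen on this contrast, nothing is read from these shares. The median log2 fold change of the 10 was 0.52, with 8 above and 2 below 0, beside a median of -0.017 over all genes tested. By the quasi-likelihood test of edgeR, 0 of the 16661 genes (0%) had an adjusted p under the threshold of 0.05, so none of the 9 members tested did. Unadjusted, 1530 genes had a p under 0.05, and DESeq2 with default filtering called 59 genes at the adjusted threshold, none of them among the 9 members tested (no test result is given for Klf4). With 2 libraries a group, an exact permutation of the labels cannot give a p below 0.333.

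**Figure D2:**
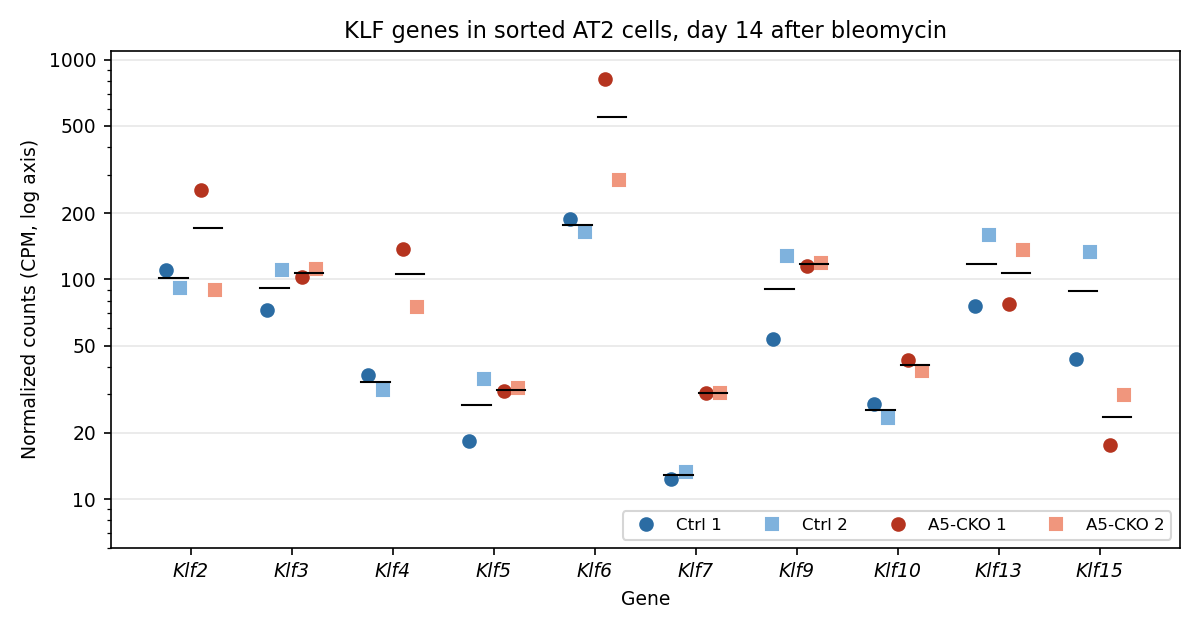
Normalized counts (CPM, log axis) of the 10 KLF genes in the 2 Ctrl libraries (blue) and the 2 A5-CKO libraries (red), with black lines at the group means. The red points lie above the blue ones for Klf4, Klf6, Klf7 and Klf10 and below them for Klf15.

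Klf4 (chromosome 4, 55527137 to 55532475, GRCm38.p6), a pluripotency factor that restrains division in many epithelia and promotes their differentiation, had 621, 537, 3053 and 1748 counts. These were 36.7 and 31.2 CPM in Ctrl against 138 and 74.7 CPM in A5-CKO. Means were 34.0 ± 3.87 CPM (SD, n = 2) for Ctrl and 107 ± 44.9 CPM (SD, n = 2) for A5-CKO, and the lower A5-CKO library lay 1.03 above the higher Ctrl library on the log2 scale. The log2 fold change was 1.65 ± 0.38 (SE), a 3.13-fold difference, and it was 1.13 without A5-CKO 1 and 1.99 without A5-CKO 2. It exceeded that of 95.6% of all genes tested.

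Klf6 (chromosome 13, 5861489 to 5870393), an injury-responsive factor described as an inducer of the cell cycle inhibitor Cdkn1a, had 189 and 164 CPM in Ctrl against 814 and 285 CPM in A5-CKO. The A5-CKO libraries both exceeded the Ctrl libraries, but they differed from each other by 1.51 on the log2 scale, against 0.20 between the Ctrl libraries. A5-CKO over Ctrl gave a log2 fold change of 1.64 ± 0.52 (SE; edgeR, adjusted p = 0.528). It was 0.68 without A5-CKO 1, which carried most of the difference, and the adjusted p was between 0.146 and 0.878 over all alternatives.

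Klf7 (chromosome 1, 64029448 to 64122345), best known for its part in neuron and fat cell development, had the closest agreement within genotypes. It had 12.3 and 13.3 CPM in Ctrl against 30.3 CPM in both A5-CKO libraries (670 and 709 counts). Means were 12.8 ± 0.724 CPM (SD, n = 2) for Ctrl and 30.3 ± 0.0196 CPM (SD, n = 2) for A5-CKO, a log2 fold change of 1.24 ± 0.34 (SE; edgeR, adjusted p = 0.528). Its value stayed between 1.21 and 1.26 when any library was left out, the narrowest range of the 10 genes. Corrected for GC content and transcript length it was 0.79, and its adjusted p was between 0.109 and 0.878 over all alternatives. Exons annotated on the opposite strand (Gm26649) share 3196 bases with Klf7, and since the sources used here do not give whether the counting used strand, reads of the 2 genes could not be separated.

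Klf2 (chromosome 8, 72319062 to 72321654), the shear stress factor of endothelium, had 111 and 91.2 CPM in Ctrl against 254 and 89.7 CPM in A5-CKO. Only A5-CKO 1 was high, and A5-CKO 2 lay below both Ctrl libraries. The log2 fold change of 0.77 ± 0.49 (SE; edgeR, adjusted p = 0.601) turned to -0.18 without A5-CKO 1 and was 1.30 without A5-CKO 2. The summed endothelial markers were 211, 282, 141 and 279 CPM, lowest in A5-CKO 1. Vwf had 60.1, 71.3, 12 and 79.9 CPM, whereas Kdr, lowest in Ctrl 1, had 6.8, 24.8, 16.8 and 14.6 CPM. The part of endothelial cells in the Klf2 values was not tested.

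Klf5 (chromosome 14, 99298691 to 99313412), the member with a known part in alveolar epithelium, did not separate the genotypes. It had 18.4 and 35.2 CPM in Ctrl against 30.9 and 32.1 CPM in A5-CKO. The A5-CKO libraries both lay within the Ctrl range. Its log2 fold change was 0.23 ± 0.40 (SE; edgeR, adjusted p = 0.858), and it was -0.10 without Ctrl 1, the library in which Klf5 was lowest, and 0.73 without Ctrl 2.

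Klf10 (chromosome 15, 38291464 to 38300711), an early TGF-beta response gene, was the only 1 of the 3 Sin3-recruiting members here (Klf9, Klf10 and Klf13) whose genotypes did not overlap. It had 27.1 and 23.5 CPM in Ctrl against 43.1 and 38.3 CPM in A5-CKO. Means were 25.3 ± 2.57 CPM (SD, n = 2) for Ctrl and 40.7 ± 3.43 CPM (SD, n = 2) for A5-CKO, a log2 fold change of 0.69 ± 0.32 (SE; edgeR, adjusted p = 0.528) that was 0.54 to 0.85 when any library was omitted.

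Klf9 (chromosome 19, 23141226 to 23168129), a glucocorticoid and thyroid hormone response gene, had 53.6 and 128 CPM in Ctrl against 116 and 118 CPM in A5-CKO. Klf13 (chromosome 7, 63886351 to 63938915), which activates the chemokine gene Ccl5 in T cells, had 75.4 and 160 CPM in Ctrl against 77.4 and 136 CPM in A5-CKO. In both genes the genotypes overlapped and the Ctrl libraries differed widely, by 1.26 and 1.08 on the log2 scale. The log2 fold changes were 0.36 ± 0.43 (SE) and -0.14 ± 0.46 (SE), with adjusted p of 0.778 and 0.927 from edgeR, and that of Klf13 turned to 0.20 with total counts only. Klf9 was at -0.073 without Ctrl 1 and 1.08 without Ctrl 2, and Klf13 at -0.64 without A5-CKO 2 and 0.47 without Ctrl 2.

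Klf3 (chromosome 5, 64803521 to 64832901), the CtBP-recruiting repressor, had 72.3 and 111 CPM in Ctrl against 102 and 112 CPM in A5-CKO. Only Ctrl 1 stood apart, at the low end, and the genotypes overlapped. The log2 fold change of 0.23 ± 0.32 (SE; edgeR, adjusted p = 0.822) was 0.012 without Ctrl 1, 0.52 without Ctrl 2 and -0.073 once GC content and length were corrected for. Exons of Gm20033 on the opposite strand share 404 bases with Klf3.

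Klf15 (chromosome 6, 90461043 to 90491803), a metabolic factor induced by glucocorticoids and by the clock, was the member with the lowest log2 fold change. It had 43.5 and 134 CPM in Ctrl against 17.6 and 29.7 CPM in A5-CKO. Both A5-CKO libraries were below both Ctrl libraries, and the Ctrl libraries differed from each other by 1.62 on the log2 scale. Means were 88.5 ± 63.6 CPM (SD, n = 2) for Ctrl and 23.6 ± 8.52 CPM (SD, n = 2) for A5-CKO, a log2 fold change of -1.90 ± 0.56 (SE; edgeR, adjusted p = 0.528). Only 0.6% of all genes tested had a lower log2 fold change. Ctrl 2 carried much of the difference, which was -0.91 without it and -2.43 without Ctrl 1.

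**Figure D3:**
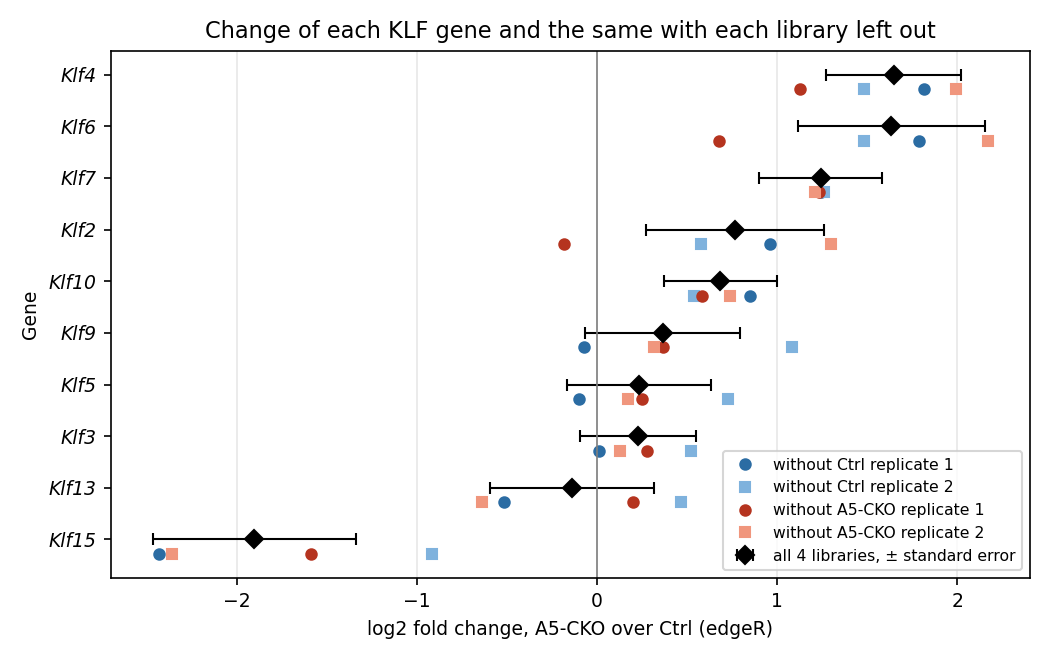
Log2 fold change of each KLF gene (A5-CKO over Ctrl) with its standard error (black), and the same with each library left out (coloured). The values of Klf7 stay between 1.21 and 1.26, while Klf6 moves to 0.68 and Klf2 to -0.18 without A5-CKO 1.

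The members were compared across the 4 libraries by the root-mean-square (RMS) difference between genes of log2 CPM, each gene centred on its own mean. Distances between members were not set beside those of other gene pairs, and what set them was not tested. Klf4 and Klf6 were close to each other, at 0.231. Klf5 was close to Klf3, at 0.117, and to Klf9, at 0.151, while Klf3 and Klf9 lay at 0.26 from each other. All of Klf3, Klf5 and Klf9 were lowest in Ctrl 1. Klf15 was apart from all other members, at 0.839 to 1.89. Among all genes tested, the 5 nearest to Klf4 were Gm36856, Gm10615, Trmt13, Gm34455 and Gm39712, at 0.0628 to 0.0916, and 66 of 16660 genes lay within 0.2. Most of these 5 were transcripts of few reads, such as Gm36856 with 7, 6, 39 and 20 counts, and Trmt13, a tRNA methyltransferase gene, had 64, 49, 283 and 158 counts.

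Klf2, Klf4, Klf6 and, by less, Klf10 were highest in A5-CKO 1, a library also high in immediate early genes. Such genes are induced within minutes by growth factors, stress and the dissociation of tissue, and Klf2, Klf4, Klf6 and Klf10 are themselves among the genes that dissociation can induce. The summed level of 16 immediate early and dissociation genes was 4864 and 8437 CPM in Ctrl against 13690 and 4432 CPM in A5-CKO. Of the 14 tested, 9 had a log2 fold change above 0, with a median of 0.29, and 0 passed the adjusted threshold. Their median was -0.53 without A5-CKO 1, 0.94 without A5-CKO 2 and 0.90 without Ctrl 2. Atf3, the stress factor and the only gene of the list whose genotypes did not overlap, had 2003, 2122, 25347 and 3156 counts. In A5-CKO 2 the list summed to the lowest value of the 4 libraries. There Klf2 was below both Ctrl libraries, at 89.7 CPM. Klf4, Klf6 and Klf10 were above both, the property by which they were set apart above, so nothing is read from it. The part of dissociation in these values was not tested.

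Klf9, Klf13 and Klf15 were lower in Ctrl 1 than in Ctrl 2, and so were output genes of the circadian clock. The same held for Klf3, Klf5 and, by little, Klf7, so it was not particular to those members. The clock list of 16 genes summed to 657 and 1898 CPM in Ctrl against 1089 and 993 CPM in A5-CKO. Chosen after their values were seen, Dbp had 312, 4001, 530 and 1127 counts and Nr1d1 had 732, 9346, 5925 and 2684 counts. Npas2, which runs opposite to them in the clock, had 528, 149, 750 and 168 counts. Between the Ctrl libraries the opposition held for both Dbp and Nr1d1. Between the A5-CKO libraries it held for Dbp but not for Nr1d1. There Nr1d1 and Npas2 were both higher in A5-CKO 1 than in A5-CKO 2, and Dbp was lower. Between genotypes, 8 of the 16 had a log2 fold change above 0 and 8 below, with a median of -0.0025 and 0 past the adjusted threshold. That median was -0.34 (5 above, 11 below) without Ctrl 1 and 0.69 (11 above, 5 below) without Ctrl 2, and it was 0.32 with total counts only. Clock was the only gene of the list whose genotypes did not overlap (743, 499, 1694 and 1277 counts). The hour of collection is not given in the sources used here, and its part was not tested. Of 12 glucocorticoid response genes, 11 were tested, with 6 above and 5 below 0, a median of 0.33 (-0.41 without A5-CKO 2) and 0 past the adjusted threshold in edgeR. The genotypes did not overlap for 5 of them, 2 higher and 3 lower in A5-CKO, beside 20.3% higher and 23.5% lower of all genes tested. Pdk4, a kinase gene that restrains glucose oxidation, had 59, 63, 452 and 488 counts and a log2 fold change of 2.53 ± 0.42 (SE; edgeR, adjusted p = 0.528), and DESeq2 called it (adjusted p = 1.56e-05 over these genes, 3.56e-05 with its default filter). Nr3c1, the glucocorticoid receptor gene, was at 0.45 ± 0.31 (SE). Fkbp5, a receptor cochaperone gene, had 2.90, 1.63, 0.0906 and 1.41 CPM, at -1.58 ± 1.11 (SE), with only 2 counts in A5-CKO 1. Cebpd, a transcription factor gene, had 194, 235, 153 and 107 CPM, at -0.72 ± 0.33 (SE). No other gene of the lists, the 10 members aside, passed the adjusted threshold under any alternative.

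**Figure D4:**
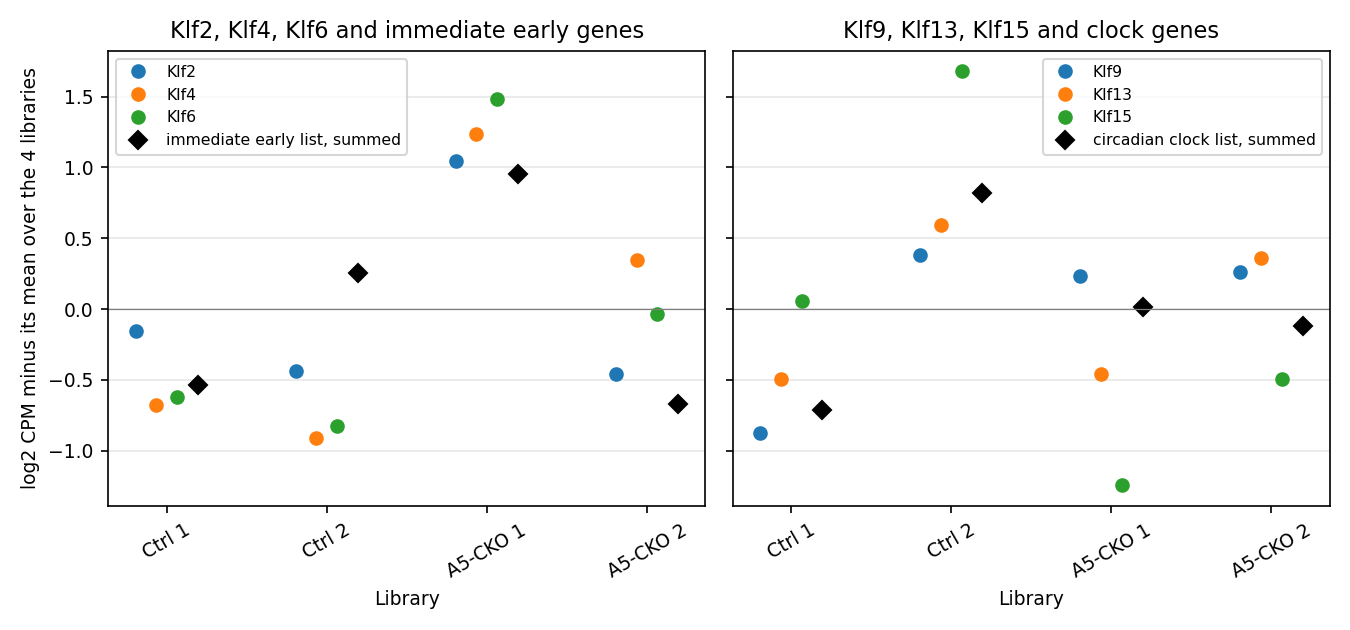
Log2 CPM of each gene minus its mean over the 4 libraries. Left, Klf2, Klf4 and Klf6 with the summed immediate early list, all highest in A5-CKO 1. Right, Klf9, Klf13 and Klf15 with the summed clock list, all highest in Ctrl 2. Klf10 was also highest in A5-CKO 1 and Klf5 in Ctrl 2, and neither is shown.

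The relatives of these genes were given by lists. Of the 7 other KLF genes listed, 4 were tested, 3 with a log2 fold change above 0 and 1 below, none past the adjusted threshold. Their median of 0.49 was -0.097 (1 above, 3 below) without Ctrl 1 and 1.12 without Ctrl 2, and without either A5-CKO library 2 lay above and 2 below. Klf16, a Sin3-recruiting member, had 862, 699, 436 and 601 counts and was lower in both A5-CKO libraries, with a log2 fold change of -1.01 ± 0.33 (SE; edgeR, adjusted p = 0.528). Klf12, a CtBP-recruiting member, was higher in both, from 30 and 19 counts to 46 and 97. The remaining 3 (Klf1, Klf14 and Klf17) had at most 8 counts in a library. Of 9 SP genes, the closest relatives of the family, 6 were tested, 3 of them above and 3 below 0, with a median of 0.13 and 0 past the adjusted threshold. Sp4 and Sp6 were higher in both A5-CKO libraries, at log2 values of 0.74 and 0.52, and Sp5 and Sp2 lower in both, at -0.78 and -0.54. The SP median was -0.24 after correction for GC content and length, so its direction was not stable.

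The cofactors and ligases that act on KLF proteins were tested in full, 12 of 12, with 8 above and 4 below 0, a median of 0.15 and 0 past the adjusted threshold. The ubiquitin ligase genes Wwp1 and Fbxw7, whose proteins mark Klf2 and Klf5 for degradation, were both higher in both A5-CKO libraries, at log2 fold changes of 0.54 ± 0.28 (SE) and 0.71 ± 0.38 (SE). The corepressor genes went apart, with Ctbp1 at -0.62 and Ctbp2 at 0.31, each without overlap between genotypes. The median of the list was 0.40 without Ctrl 2 and changed sign without Ctrl 1 (-0.024) and after correction for GC content and length (-0.050).

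Of 15 genes described as direct KLF targets in other tissues, 13 were tested, 8 above and 5 below 0, with a median of 0.26 and 0 past the adjusted threshold. Cdkn1a, the p21 cell cycle inhibitor induced by Klf4 and Klf6, had 5004, 2388, 7601 and 9779 counts and a log2 fold change of 0.81 ± 0.43 (SE; edgeR, adjusted p = 0.553). S1pr1, a Klf2 target, was at 0.76 ± 0.44 (SE), with 191 and 339 counts in Ctrl against 445 and 758 in A5-CKO. Bcat2, a branched-chain amino acid enzyme gene that Klf15 activates in muscle, had 1658, 1140, 963 and 997 counts and a log2 fold change of -0.93 ± 0.31 (SE; edgeR, adjusted p = 0.528). Tgfb1 was at -0.81 ± 0.40 (SE), and its libraries also did not overlap. The list had no single direction, and its median was -0.088 without A5-CKO 2, 0.066 without Ctrl 2 and 0.41 without Ctrl 1.

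Cell state markers gave the setting for these values. All 10 AT2 markers (9 with total counts only, without Ctrl 2 or without A5-CKO 2) were below 0 on the log2 scale, with a median of -0.85 (-0.51 without Ctrl 2). Of them, 7 were lower in both A5-CKO libraries, as 23.5% of all genes tested were, and none passed the adjusted threshold. Of the 8 AT1 markers tested, 6 were above 0, with a median of 0.69 that was 1.25 without Ctrl 1 and 0.40 without Ctrl 2. In both A5-CKO libraries 5 were higher and 1, Aqp5, was lower, beside 20.3% and 23.5% of all genes tested. Aqp5 had 981.4, 951.2, 478.5 and 635.7 CPM, at -0.79 ± 0.35 (SE). The AT1 list summed to 1680 and 1471 CPM in Ctrl against 1774 and 1559 CPM in A5-CKO. Ager and Pdpn, which define the type, had at most 17 counts in a library, and Pdpn has a further copy on a genome patch. All 10 transitional cell markers were above 0, with a median of 0.52 that was -0.075 without A5-CKO 2, -0.083 without Ctrl 2 (5 above and 5 below in both) and 1.56 without Ctrl 1. Their summed level was 3387 and 1441 CPM in Ctrl against 2317 and 3683 CPM in A5-CKO. The sum was highest in A5-CKO 2 and Klf4 in A5-CKO 1, and both were lowest in Ctrl 2. Of the 10, 3 (Cdkn1a, Areg and Hbegf) were higher in both A5-CKO libraries, as 20.3% of all genes tested were, and 0 were lower in both. Hbegf, with 53.6, 32.2, 122 and 85.7 CPM, was highest in A5-CKO 1. The part of a shift in cell state in the KLF values was not tested.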

How the data were processed

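RNA-seq counts of sorted AT2 cells from 2 Ctrl and 2 A5-CKO samples were used. The deposited counts are unnormalized reads per gene that the authors made with Trim Galore 0.6.10, removal of ribosomal RNA reads, HISAT2 2.2.1 on mm10, removal of duplicates and featureCounts 2.0.3. The counting is given under MeRIP-seq in the study's methods and was taken to hold here. No member has a copy on a genome patch.

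Counts were fitted with edgeR 4.0.16 (R 4.3.3) with TMM factors, filterByExpr, glmQLFit and glmQLFTest, and Benjamini-Hochberg adjustment over 16661 genes (common dispersion 0.173). Standard errors are the log2 fold change over the square root of F. CPM use TMM-scaled library sizes. Transcript length and GC content are from GENCODE M21, loci and promoter windows from RefSeq. Centred log2 CPM carry a prior count of 2. The fit was tested on simulated data.

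Alternatives were RLE, upper-quartile and no factors, no filter, a minimum of 10 counts in all samples, DESeq2 1.42.0 (on the same genes without its own filtering, and with default filtering), limma voom (limma 3.58.1), a robust fit, the replicate number as a block, a spline correction (4 degrees of freedom) for GC content and length over 15237 genes, a larger prior count (2), and omission of single libraries. The members and all gene lists were chosen with earlier results of these data known. Named genes are the members, Alkbh5, the 5 nearest to Klf4, and up to 4 genes a list with the largest differences and no overlap. Others, among them Sftpc, Dbp, Nr1d1, Npas2, Cldn5, Vwf, Kdr, Ager, Pdpn and those too low to test, were chosen after their values were seen.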

Additional observations from a re-analysis of the deposited data

How the results depend on the processing

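In the 160 fits of single members outside the reported one, 7 changed sign. Klf13 (-0.14) turned to 0.20 with total counts only, to 0.47 without Ctrl 2 and to 0.20 without A5-CKO 1. Klf3 turned to -0.073 with the GC and length correction. Leaving out single libraries gave -0.18 to 1.30 for Klf2 (lowest without A5-CKO 1), -0.10 to 0.73 for Klf5 and -0.073 to 1.08 for Klf9 (both lowest without Ctrl 1), and -0.64 to 0.47 for Klf13. The median of the 10 (0.52) was 0.85 with total counts only, which moved the median of all genes from -0.017 to 0.30, and lay between 0.32 and 0.65 when single libraries were omitted. The 0 genes called became 55 in DESeq2 on the same genes and 59 with its default filtering, and the cause was not tested. The 1530 genes at an unadjusted p under 0.05 became 754 with the replicate block and 746 without A5-CKO 1. The members higher in every A5-CKO library (4) numbered 7 with total counts only, where the share of all genes went from 20.3% to 34.8%. With single libraries omitted, chosen after seeing the data, they numbered 4 to 8, the 8 without Ctrl 2, with 33.3% to 36.2% of all genes. The 1 lower member (23.5% of all genes) became 4 without Ctrl 1 and 2 without A5-CKO 1, beside 40.7% and 36.5% of all genes.

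Replicate numbers share no stated litter or batch. The deviations of libraries sharing a number correlated at -0.348 over genes. With the replicate block, the median of the members was 0.54 and 0 genes were called. The spread between 2 libraries a group (biological coefficient of variation 41.6%), more than the depth of these members, with at least 208 counts in a library, limits the comparisons.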
